A study of Mus musculus with 12 samples.

Results

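The members are the Rab GTPase genes of the mouse and a set of genes whose products act on early endosomes. They were chosen by symbol: every gene named Rab followed by a number, with or without a letter, and 18 named regulators, namely the Rab5 exchange factors Rabgef1, Rin1, Rin2 and Rin3, the Rab5 effectors Eea1, Appl1, Appl2, Rabep1 and Rabep2, the receptor-sorting genes Hgs, Stam, Stam2 and Tsg101, the retromer and sorting nexin genes Vps35, Snx1 and Snx2, and the ubiquitin ligase genes Cbl and Cblb. Of 51490 genes in the count table, 76 were members with a count in any sample, 58 of them Rab genes and 18 regulators. Rab39 also met the rule but had no count. After a filter for low counts, 68 members were tested among 15037 genes, and 8 were not tested because their counts were too low (Rab9b, Rab17, Rab19, Rab25, Rab26, Rab33a, Rab37 and Rab44).

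RNA-seq was performed on iMEPM cells, an immortalized line of mouse embryonic palatal mesenchyme that came from a male Cdkn2a-/- embryo, so that all groups lacked Cdkn2a. One line stably expressed a scramble shRNA (scramble) and the other an shRNA against the 3’ UTR of Srsf3 (shSrsf3), each with GFP and puromycin resistance from the same lentivirus, selection in 4 µg/mL puromycin for 10 days, sorting for high GFP and use at passages 9 to 20. Serum-starved cells of each line received either no ligand (-PDGF-AA) or PDGF-AA at 10 ng/mL over 1 hr (+PDGF-AA). The 4 groups of 3 biological replicates were scramble -PDGF-AA, shSrsf3 -PDGF-AA, scramble +PDGF-AA and shSrsf3 +PDGF-AA. There was 1 line per shRNA, so the effect of the shRNA and any other difference between both lines cannot be told apart. The study asked how Srsf3, a splicing factor that acts downstream of PDGFRα, bears on endosomal trafficking of the receptor, and early endosomes were marked there by Rab5.

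Rab GTPases are small proteins that switch between a GDP-bound and a GTP-bound form and mark the membranes of the secretory and endocytic pathways. Exchange factors load GTP onto a Rab, GTPase-activating proteins of the TBC family end its active state, and effectors bind the active form to tether, fuse or move vesicles. Ligand-bound receptor tyrosine kinases such as PDGFRα are taken up into early endosomes, where Rab5 acts with Eea1, and from there are returned to the surface by recycling Rabs or, after ubiquitination by Cbl proteins, sorted by ESCRT complexes toward Rab7-positive late endosomes and lysosomes.

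The samples held between 30958966 and 76123359 counts, and a level is given in CPM, that is counts scaled to library size, here with TMM factors between 0.983 and 1.02. Srsf3 itself was at 206.8, 198.7 and 211.8 CPM in scramble samples against 162.4, 164.0 and 161.1 CPM in shSrsf3 samples without ligand (log2 fold change -0.34 ± 0.0379 SE, adjusted p = 7.95e-06 by edgeR's quasi-likelihood test), and its log2 fold change with ligand was -0.43 (adjusted p = 9.54e-07). These are RNA levels, and the study's western blot gave a larger decrease for Srsf3 protein in the shSrsf3 line. Of 11 palate mesenchyme markers, Tbx22 was at 0 in every sample and Msx1 and Osr2 were low, at means of 1.22 and 3.65 CPM, whereas Pdgfrb, Prrx1, Twist1, Col1a1, Col1a2 and Vim were well expressed. The remaining markers, Pdgfra and Snai2, were at means of 57.9 and 22.6 CPM. The summed mesenchyme markers were 35280 to 37065 CPM in scramble and 31538 to 33822 CPM in shSrsf3 samples. Of 10 tested, 1 was higher and 5 lower in shSrsf3 cells without ligand at an adjusted p of 0.05 or less (all tested genes: 22.2% and 23.7%). With ligand, 1 was higher and 4 lower (all tested genes: 20.3% and 20.7%). Of other cell types, Esrp1, Hba-a1, Adgre1, Sox10 and Myod1 were at 0. The 4 endothelial markers summed to 30.5 to 34.6 CPM in scramble and 19.1 to 22.6 CPM in shSrsf3 samples. Nearly all of this was Tek, with Pecam1, Cdh5 and Kdr below 1 CPM on average. The lower sum was not shared by all 4, as 2 were higher and 1 lower in shSrsf3 cells at an adjusted p of 0.05 or less. Their median log2 fold change was 0.31 without and 0.58 with ligand. The 6 neural, glial and muscle markers, nearly all Tubb3, summed to 28.3 to 31.5 and 20.1 to 24.7 CPM. The 8 epithelial markers summed to 4.78 to 6.21 CPM in scramble and 2.91 to 4.25 CPM in shSrsf3 samples, and the 5 blood and macrophage markers to less than 1 CPM in each sample. The part of these differences in the results was not tested. In bulk RNA, fewer cells of a kind and less RNA per cell cannot be told apart.

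The 3 samples with the lowest Salmon mapping rates in the study's methods, replicates 1 and 2 of scramble -PDGF-AA and replicate 2 of scramble +PDGF-AA, stood apart in the levels of several members. In 13 of the 68 tested members (19.1%, against 8.34% of all tested genes) these 3 samples lay above all 9 others, and in 3 members (4.41%, against 5.77%) they lay below. The members above were Hgs, Rin2, Rab2a, Rab2b, Rab4b, Rab5c, Rab6b, Rab7, Rab8a, Rab9, Rab11b, Rab14 and Rab24, and those below were Cbl, Rab11a and Vps35. For example, Rab8a, a Rab of the secretory pathway, was at 105.5 CPM or more in these samples and at 96.99 CPM or less in the others. All 3 are scramble samples, so called members among these are given below also from the 9 other samples where values are described. Those leave 1 scramble sample without and 2 with ligand, and the fit takes the spread of the lone sample from the remaining groups. In that fit by edgeR, which tested 69 members, 11 were higher (15.9%, against 16.8% of all genes tested in it) and 12 lower (17.4%, against 17.5%) in shSrsf3 than in scramble cells in the absence of ligand. With ligand, 13 were higher (18.8%, against 19.8%) and 18 lower (26.1%, against 20.6%).

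Level per length was compared between members as CPM divided by the length in kb of each gene's main transcript. Rab7, the Rab of late endosomes, had the highest level at 129 CPM per kb over all samples, followed by Rab1a, which acts between ER and Golgi, at 86.8 and Rab1b at 51.4 CPM per kb. In scramble -PDGF-AA samples these were 138 ± 10.8, 87.9 ± 0.982 and 56.8 ± 1.12 CPM per kb (SD, n = 3), in an order that exceeded the spread between replicates. Among the Rab5 genes, Rab5b and Rab5c did not differ in these samples beyond their spread (35.7 ± 0.704 and 35.8 ± 1.71 CPM per kb), and Rab5a was lower at 24.1 ± 1.19 CPM per kb. Rab3b, a Rab of regulated secretion, was at 0.223 ± 0.0288 CPM per kb.

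Knockdown of Srsf3 went with changes in many members, nearly all of them small. A gene was called where edgeR's quasi-likelihood test over all tested genes gave an adjusted p no greater than 0.05, with no minimum for the fold change. Counts are per gene, so isoforms of a gene are not told apart. In the absence of ligand, 12 of 68 members were higher in shSrsf3 than in scramble cells (background: 22.2% of all tested genes) and 23 were lower (background: 23.7%), which is 17.6% and 33.8% of the members. With ligand, 11 members were higher (background: 20.3%) and 17 lower (background: 20.7%), or 16.2% and 25% of the members. In both comparisons the share of higher members was below the background and that of lower members above it, but without ligand the share of lower members did not exceed the background in the 9 samples with higher mapping rates, as given above. The median log2 fold change of the members was -0.08 without and -0.02 with ligand, beside -0.02 and -0.01 over all tested genes. By the 2-fold minimum that the study used for DE genes, 1 member passed without ligand and 2 with ligand (background: 5.75% and 5.42%). These were Rab3b in both comparisons and Rab3c with ligand.

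Of the 68 members, 10 were higher and 16 lower in both comparisons, none was called in opposite directions, 9 were called without ligand alone, 2 with ligand alone and 31 in neither. Over all 15037 tested genes, 2516 were higher and 2546 lower in both, and 7035 were called in neither. Without ligand alone, 815 of all tested genes were higher and 1018 lower, and with ligand alone 532 were higher and 571 lower. Calls in opposite directions were as rare over all tested genes, with 2 genes in each order. The 10 higher in both were Rab3b, Rab7b, Rab15, Rab27a, Rab31, Rab35, Rab43, Eea1, Rabgef1 and Rin1. The 16 lower in both were Rab1b, Rab2b, Rab3a, Rab3c, Rab5a, Rab5c, Rab6b, Rab9, Rab10, Rab32, Rab33b, Rab34, Rab40c, Rin2, Hgs and Cblb. From the 9 samples with higher mapping rates, 9 of these 10 and 11 of these 16 were called in both again, and Rab43, Rab5c, Rab6b, Rab9, Rab10 and Rab34 were not. A difference in the knockdown effect between the absence and presence of ligand is an interaction, for which no member was called. Counts for Rab43 and Rab4b are uncertain, since 69.8% and 59.8% of their 31-base sequences also occur in transcripts of other genes, mostly gene models that overlap them.

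**Figure D1:**
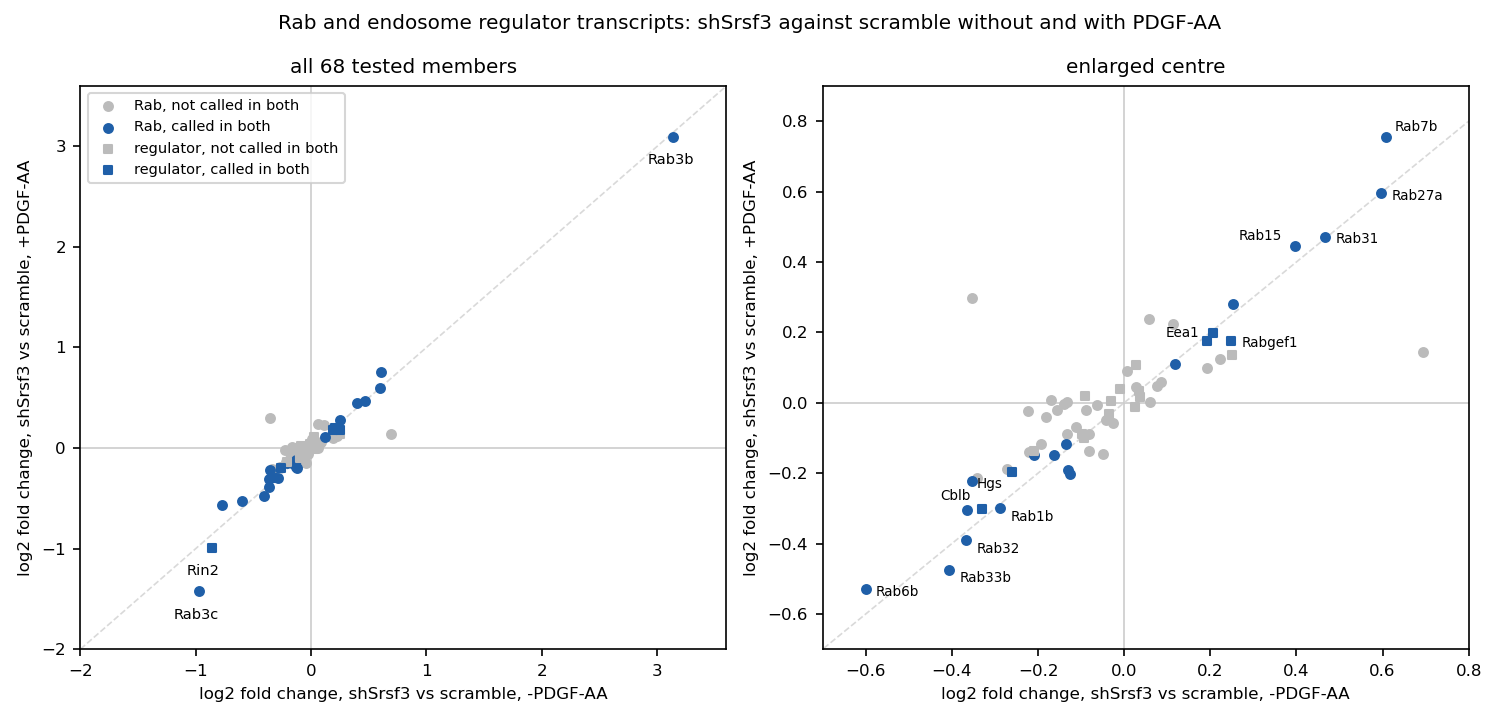
Log2 fold change of each of the 68 tested members between shSrsf3 and scramble cells without PDGF-AA (x axis) and with PDGF-AA (y axis), all members on the left and the centre enlarged on the right. Circles are Rab genes, squares are regulators, and blue marks the 26 members called in the same direction in both comparisons. Rab3b lies alone at 3.14 and 3.09, Rab3c and Rin2 lie lowest, and most other members lie within 0.5 of 0.

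Rab5, the Rab of early endosomes, is encoded by 3 genes, and the sum of their transcripts was lower in shSrsf3 cells. Rab5c was at 141, 139 and 129 CPM in scramble samples against 121, 121 and 112 CPM in shSrsf3 samples in the absence of ligand, and at 128, 135 and 133 against 115, 121 and 120.4 CPM upon ligand stimulation. The shSrsf3 samples were the lower ones throughout, with log2 fold changes of -0.21 ± 0.0446 (SE, adjusted p = 0.00181) and -0.15 ± 0.0447 (adjusted p = 0.0162). From the 9 samples with higher mapping rates, the first was -0.13 (adjusted p = 0.0656) and the second -0.13 (adjusted p = 0.0203). The call with ligand was lost without scramble +PDGF-AA replicate 2 (adjusted p = 0.0525) or shSrsf3 +PDGF-AA replicate 1 (adjusted p = 0.0659).

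Rab5a was at 85.5, 85.2 and 92.9 CPM in scramble samples against 81.2, 82.6 and 76.9 CPM in shSrsf3 samples without ligand, and at 90.5, 84.2 and 91.1 against 79.9, 75.4 and 77.5 CPM with ligand. The groups did not overlap in either comparison, and the log2 fold changes were -0.13 ± 0.0478 (SE, adjusted p = 0.0379) and -0.19 ± 0.0480 (adjusted p = 0.00583). The call without ligand was lost without replicate 1 or 3 of scramble -PDGF-AA, replicate 1 or 3 of shSrsf3 -PDGF-AA, or replicate 1 or 3 of shSrsf3 +PDGF-AA, with adjusted p between 0.0511 and 0.206. It was lost too in edgeR with DESeq2 size factors (adjusted p = 0.0524) and with only the 6 samples compared (adjusted p = 0.0785). The call with ligand was kept whichever sample was left out. Rab5b, at 124, 122 and 119 CPM in scramble samples against 114, 119 and 111 CPM in shSrsf3 samples without ligand, did not pass the test there (log2 fold change -0.09, adjusted p = 0.0739) or with ligand (-0.02, adjusted p = 0.706).

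Together, the Rab5 genes were at 346 ± 4.86 CPM in scramble samples against 313 ± 11.3 CPM in shSrsf3 samples without ligand and at 332 ± 2.65 and 307 ± 2.79 CPM with ligand (SD, n = 3). In both conditions the lowest scramble sample (341 and 329 CPM) was above the highest shSrsf3 sample (323 and 309 CPM). No test was run on sums. Transcripts of all Rab genes with a count summed to 3199 ± 122 and 3025 ± 77.2 CPM without ligand and 3097 ± 45.4 and 2982 ± 52.0 CPM with ligand, in scramble and shSrsf3 samples. Without ligand those groups overlapped, with 3059 CPM in the lowest scramble and 3109 CPM in the highest shSrsf3 sample.

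**Figure D2:**
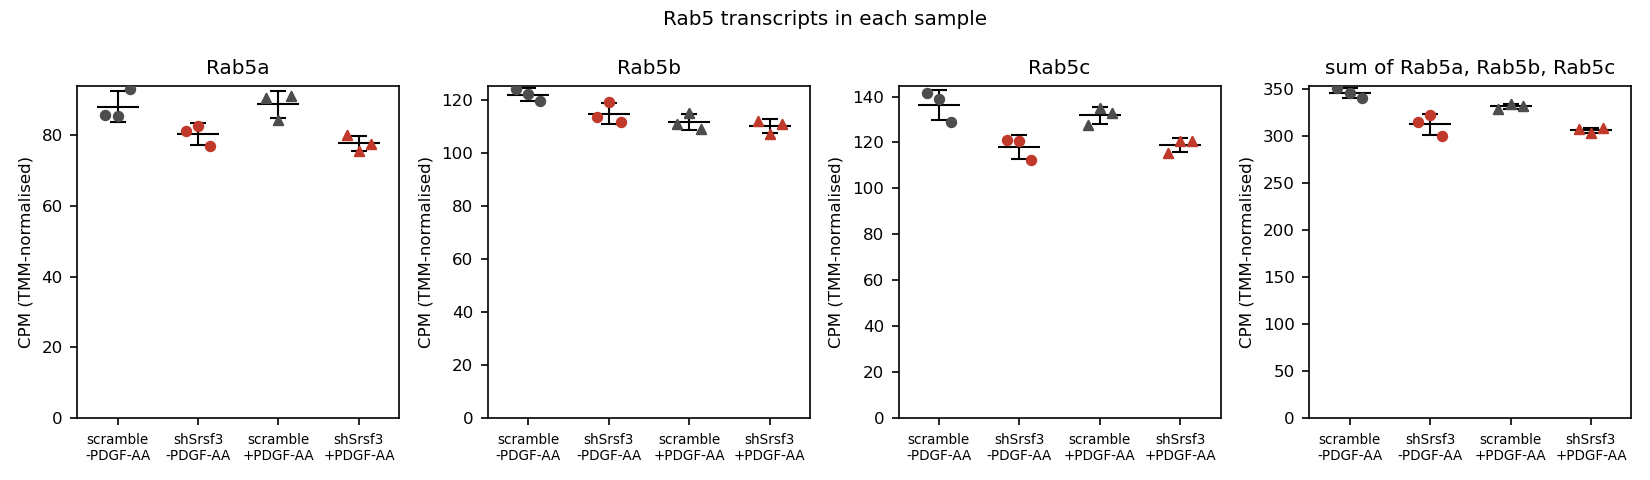
Level in CPM (y axis, from 0) of Rab5a, Rab5b, Rab5c and their sum in each of the 12 samples by group (x axis), with grey for scramble, red for shSrsf3, circles without and triangles with PDGF-AA, and bars for mean ± SD (n = 3). The sum is 301 to 323 CPM in shSrsf3 and 329 to 351 CPM in scramble samples, and Rab5b differs less than Rab5a and Rab5c.

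Of the other Rabs of early endosomes, Rab31 rose. Rab31, which acts between the trans-Golgi network and early endosomes, was at 43.7, 48.9 and 46.2 CPM in scramble samples against 62.97, 65.5 and 63.4 CPM in shSrsf3 samples without ligand and at 47.8, 44.02 and 45.03 against 62.8, 62.3 and 64.9 CPM with ligand. The shSrsf3 samples were the higher ones throughout, with log2 fold changes of 0.47 ± 0.0468 (SE, adjusted p = 3.02e-06) and 0.47 ± 0.0470 (adjusted p = 2.97e-06). Its change was thus opposite in sign to those of Rab5a and Rab5c. Rab21, Rab22a and Rab20 passed neither test, with log2 fold changes between -0.06 and 0.08.

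The genes for Rab5 exchange factors, which activate Rab5, moved in both directions, and one of them had the largest change of the 18 regulators. Rin2 (chr2:145517135-145729609 in GRCm39) encodes a Rab5 exchange factor that also binds Ras. It was at 21.6, 25.2 and 21.4 CPM in scramble samples against 12.02, 12.5 and 12.99 CPM in shSrsf3 samples without ligand, and at 16.7, 21.4 and 17.3 against 9.19, 10.4 and 8.30 CPM with ligand. The highest shSrsf3 sample in each condition was below the lowest scramble sample, with log2 fold changes of -0.86 ± 0.0973 (SE, adjusted p = 8.93e-06) and -0.99 ± 0.104 (adjusted p = 5.12e-06). From the 9 samples with higher mapping rates they were -0.78 (adjusted p = 1.04e-05) and -0.88 (adjusted p = 1.08e-06), so both calls were kept.

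Rabgef1, which encodes the exchange factor Rabex-5, was at 33.7, 35.01 and 33.2 CPM in scramble samples against 39.5, 41.2 and 40.4 CPM in shSrsf3 samples without ligand, and was at 36.5, 35.1 and 35.4 against 41.4, 41.4 and 38.1 CPM with ligand. Its log2 fold changes were 0.25 ± 0.0414 (SE, adjusted p = 2.70e-04) and 0.18 ± 0.0417 (adjusted p = 0.00391), and the groups did not overlap. Rin1, a Ras effector with exchange activity for Rab5, rose by a similar size (log2 fold changes 0.21 and 0.20, adjusted p = 8.96e-04 and 0.00123). Rin3 did not pass the test in either comparison (-0.09 and 0.02). Rin1 and Rin3, like all members named below that no selection rule picked, were added after their values were seen.

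Among the Rab5 effectors, Eea1 rose in both comparisons. Eea1 encodes the tether that binds active Rab5 and the lipid PI3P and helps early endosomes to fuse. It was at 86.5, 81.9 and 82.1 CPM in scramble samples against 91.1, 94.9 and 100.3 CPM in shSrsf3 samples without ligand and at 88.2, 84.9 and 86.6 against 96.4, 99.6 and 97.5 CPM with ligand. All shSrsf3 samples were above all scramble samples, with log2 fold changes of 0.19 ± 0.0415 (SE, adjusted p = 0.00194) and 0.18 ± 0.0416 (adjusted p = 0.00397). Appl1, an adaptor that marks a population of early endosomes and binds Akt, had log2 fold changes of -0.09 and -0.10 that missed the threshold (adjusted p = 0.0639 and 0.0562), although its groups did not overlap. Rabep1, which encodes the Rabaptin-5 partner of Rabex-5, was at 78.6 ± 2.41 CPM in scramble samples against 80.7 ± 1.88 CPM in shSrsf3 samples without ligand, overlapping between groups (log2 fold changes 0.04 and 0.02). Its relative Rabep2 fell without ligand (-0.21, adjusted p = 0.00535) and had -0.14 with ligand (adjusted p = 0.0548), and Appl2 passed neither test.

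Of the genes that sort ubiquitinated receptors, Hgs fell in both comparisons. Hgs encodes Hrs, the ESCRT-0 subunit that binds ubiquitinated receptors on early endosomes. It was at 88.4, 89.7 and 84.5 CPM in scramble samples against 74.1, 73.04 and 71.9 CPM in shSrsf3 samples without ligand and at 85.2, 88.3 and 82.9 against 73.1, 74.6 and 76.2 CPM with ligand, with no overlap. Its log2 fold changes were -0.26 ± 0.0384 (SE, adjusted p = 9.90e-05) and -0.20 ± 0.0386 (adjusted p = 0.00111), and from the 9 samples with higher mapping rates -0.22 and -0.17 (adjusted p = 0.00281 and 0.00216). Stam, whose product forms ESCRT-0 with Hrs, was at 31.5 ± 1.11 and 31.3 ± 0.637 CPM without ligand (log2 fold change -0.01, adjusted p = 0.864) and had 0.04 with ligand. Stam2 likewise had -0.03 and 0.00387. Tsg101, a subunit of ESCRT-I, had -0.10 and -0.09 (adjusted p = 0.0798 and 0.129), of which the latter was -0.11 and passed from the 9 samples (adjusted p = 0.0296), with 13.1% of its 31-base sequences shared with other transcripts.

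The Cbl ubiquitin ligases, which tag activated receptor tyrosine kinases for sorting, moved in opposite directions in the absence of ligand. Cblb was at 26.1, 24.1 and 24.96 CPM in scramble samples against 19.9, 19.5 and 20.3 CPM in shSrsf3 samples without ligand and at 22.8, 23.6 and 22.2 against 18.7, 19.7 and 17.2 CPM with ligand. It was lower in every shSrsf3 sample, with log2 fold changes of -0.33 ± 0.0502 (SE, adjusted p = 1.26e-04) and -0.30 ± 0.0519 (adjusted p = 3.86e-04). Cbl rose without ligand, from 57.3 ± 3.35 to 68.2 ± 5.87 CPM (0.25, adjusted p = 0.00507), and had a change of 0.14 with ligand that did not pass (adjusted p = 0.102). Its change without ligand was 0.18 (adjusted p = 0.0716) from the 9 samples with higher mapping rates. In contrast, none of the retromer and sorting nexin members passed either test in the fit of all 12 samples. Vps35, the core subunit of retromer, was at 132 ± 7.33 CPM in scramble samples against 134 ± 2.47 CPM in shSrsf3 samples without ligand (0.03 ± 0.0463 SE, and -0.07 from the 9 samples) and Snx1, which bends endosomal membranes into tubules, at 56.9 ± 3.95 and 58.3 ± 2.56 CPM (0.03 ± 0.0605 SE, and -0.07 from the 9 samples). Snx2 had 0.03 and 0.11, with larger rises of 0.12 and 0.14 from the 9 samples, of which the latter passed the test. Of its 31-base sequences, 22.2% are shared with other genes.

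**Figure D3:**
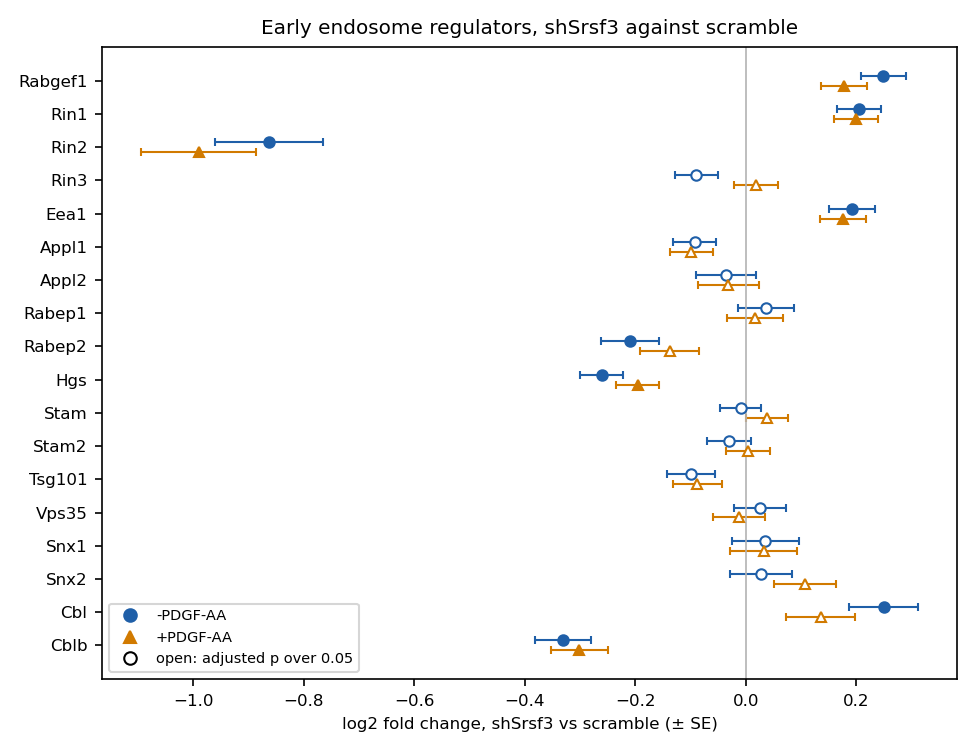
Log2 fold change between shSrsf3 and scramble cells (x axis, ± SE) of the 18 early endosome regulators (y axis), blue circles without and orange triangles with PDGF-AA, filled where the adjusted p was 0.05 or less. Rin2 lies at -0.86 and -0.99, and all other regulators lie between -0.33 and 0.25.

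Recycling Rabs return endocytosed receptors to the plasma membrane. Of 7 tested, 3 were higher and 3 lower without ligand (background: 22.2% and 23.7%), and 2 higher and 0 lower with ligand (background: 20.3% and 20.7%). Those lower without ligand included Rab4b and Rab11b (-0.27 and -0.13, and -0.08 and -0.06 from the 9 samples with higher mapping rates). Rab15 and Rab35 rose in both comparisons. Rab15, which acts at the recycling endosome, was at 7.64, 7.17 and 6.20 CPM in scramble samples against 9.19, 9.26 and 9.05 CPM in shSrsf3 samples without ligand and at 6.66, 7.14 and 6.28 against 9.19, 8.98 and 9.14 CPM with ligand, with log2 fold changes of 0.40 ± 0.0769 (SE, adjusted p = 8.94e-04) and 0.45 ± 0.0785 (adjusted p = 4.66e-04). Rab35, which acts in rapid recycling, had smaller changes of 0.12 and 0.11 (adjusted p = 0.0157 and 0.0249), the latter lost without scramble +PDGF-AA replicate 3 or shSrsf3 +PDGF-AA replicate 1 or 2 (adjusted p = 0.0862, 0.0600 and 0.0552). With no low-count filter both calls of Rab35 were lost (adjusted p = 0.0931 and 0.198). Rab11a, the main Rab of slow recycling, rose without ligand from 73.2 ± 4.15 to 83.7 ± 3.43 CPM (0.19, adjusted p = 0.00419), and Rab4a, of fast recycling, fell from 19.4 ± 0.856 to 16.9 ± 1.01 CPM (-0.19, adjusted p = 0.0062). Neither passed with ligand (0.10 and -0.12, adjusted p = 0.116 and 0.0832) or, without ligand, from the 9 samples with higher mapping rates (0.13 and -0.13, adjusted p = 0.0847 and 0.141).

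Of 7 tested Rabs of late endosomes, lysosomes and related organelles, Rab7b rose and Rab32 fell in both comparisons. Rab7b, which acts between late endosomes and the Golgi, was at 16.5, 18.05 and 18.6 CPM in scramble samples against 26.4, 28.4 and 26.4 CPM in shSrsf3 samples without ligand and at 15.6, 16.4 and 15.1 against 26.8, 25.1 and 27.6 CPM with ligand. The groups did not overlap, with log2 fold changes of 0.61 ± 0.0550 (SE, adjusted p = 1.07e-06) and 0.76 ± 0.0561 (adjusted p = 1.81e-07). Rab32, known from melanosomes and mitochondria, fell from 34.2 ± 1.67 to 26.5 ± 1.57 CPM without ligand and from 33.6 ± 0.110 to 25.6 ± 0.154 CPM with ligand (-0.37 and -0.39, adjusted p = 2.23e-05 and 1.71e-05). Rab7, the abundant Rab of late endosomes, was at 321, 319.5 and 279 CPM in scramble samples against 273, 285 and 266 CPM in shSrsf3 samples without ligand. The groups overlapped, the test was passed (-0.16, adjusted p = 0.035), and the change was -0.02 (adjusted p = 0.757) from the 9 samples with higher mapping rates. The call was also lost without replicate 1 or 2 of scramble -PDGF-AA or replicate 1 or 3 of shSrsf3 -PDGF-AA, with adjusted p between 0.0876 and 0.131. The same held in edgeR with only the 6 samples compared (adjusted p = 0.0595). With ligand, Rab7 had -0.02 (adjusted p = 0.788). Rab9, which acts in return from late endosomes to the Golgi, had -0.16 and -0.15 (adjusted p = 0.0244 and 0.0415), and neither call was kept from the 9 samples (-0.10 and -0.12, adjusted p = 0.257 and 0.103).

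Of 13 tested Rabs of the ER and Golgi, 1 was higher and 7 lower without ligand (background: 22.2% and 23.7%) and 2 higher and 6 lower with ligand (background: 20.3% and 20.7%). From the 9 samples with higher mapping rates, 0 were higher and 3 lower without ligand (Rab1b, Rab2b and Rab33b, with 17.5% of all genes lower), and 2 higher and 6 lower with ligand. Rab6b, a Golgi Rab known from neurons, was at 4.23, 3.49 and 3.38 CPM in scramble samples against 2.81, 2.25 and 2.17 CPM in shSrsf3 samples without ligand (-0.60 ± 0.149 SE, adjusted p = 0.00486), and had -0.53 with ligand (adjusted p = 0.0149), which was lost without shSrsf3 +PDGF-AA replicate 1 or 2 (adjusted p = 0.0612 and 0.0700). Without ligand it did not pass from the 9 samples with higher mapping rates (-0.48, adjusted p = 0.0729). Rab33b, a Golgi Rab with a role in autophagy, was at 25.6, 24.9 and 24.3 CPM in scramble samples against 18.4, 19.9 and 17.9 CPM in shSrsf3 samples without ligand and at 26.01, 26.4 and 25.8 against 18.7, 17.7 and 19.95 CPM with ligand. It was lower in all shSrsf3 samples (-0.41 and -0.47, adjusted p = 2.13e-05 and 6.88e-06). Rab1b, needed for transport from ER to Golgi, fell from 112 ± 2.21 to 91.6 ± 3.77 CPM without ligand and from 111 ± 1.69 to 90.3 ± 0.906 CPM with ligand (-0.29 and -0.30, adjusted p = 3.04e-05 and 2.35e-05). Its close relative Rab1a passed with ligand (-0.14, adjusted p = 0.00336) and not without (-0.05, adjusted p = 0.255). Among the remaining 5 tested Rabs, Rab40c, which recruits substrates to a ubiquitin ligase, fell in both comparisons (-0.35 and -0.22, adjusted p = 9.99e-05 and 0.0044).

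The largest rise and the largest fall of all members were in the Rab3 genes, whose products act in regulated secretion. Rab3b (start of transcription at the first base of chr4:108736260-108800521 in GRCm39, plus strand) was at 0.675, 0.851 and 0.696 CPM in scramble samples against 6.75, 5.98 and 6.85 CPM in shSrsf3 samples without ligand, and at 0.565, 0.797 and 0.711 against 4.97, 6.35 and 6.44 CPM with ligand. All 6 shSrsf3 samples were at 4.97 CPM or more and all 6 scramble samples at 0.851 CPM or less, with log2 fold changes of 3.14 ± 0.154 (SE, adjusted p = 3.16e-09) and 3.09 ± 0.153 (adjusted p = 3.72e-09). Rab3c went the other way, with 4.10, 3.72 and 3.28 CPM in scramble samples against 1.99, 1.78 and 1.85 CPM in shSrsf3 samples without ligand and 4.73, 4.73 and 4.68 against 1.90, 1.58 and 1.77 CPM with ligand. Its log2 fold changes were -0.97 ± 0.113 (SE, adjusted p = 1.17e-05) and -1.43 ± 0.118 (adjusted p = 5.00e-07).

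Rab3a, with the same known role, also fell, from 5.91 ± 0.594 to 3.47 ± 0.349 CPM without ligand and from 4.50 ± 0.485 to 3.02 ± 0.558 CPM with ligand (-0.77 and -0.57, adjusted p = 3.05e-04 and 0.00473). Rab3d, at 4.09 ± 0.191 CPM per kb in scramble -PDGF-AA samples beside 4.09 ± 0.411 for Rab3a, passed neither test (-0.14 and -0.00488, adjusted p = 0.129 and 0.968). The sum of the Rab3 genes was 26.2 ± 1.05 CPM in scramble samples against 26.3 ± 0.638 CPM in shSrsf3 samples without ligand and 23.9 ± 1.45 and 24.6 ± 0.993 CPM with ligand (SD, n = 3), so that the makeup of the family differed while its sum overlapped between lines. Less than 1% of the 31-base sequences of Rab3a, Rab3b or Rab3c occur in another gene. Of the other secretory Rabs, Rab27a, which acts in the release of lysosome-related organelles, rose (0.60 and 0.59, adjusted p = 0.00107 and 0.00126). Rab12 varied within groups, with 7.89, 10.04 and 4.32 CPM in shSrsf3 samples without ligand, and passed neither test.

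**Figure D4:**
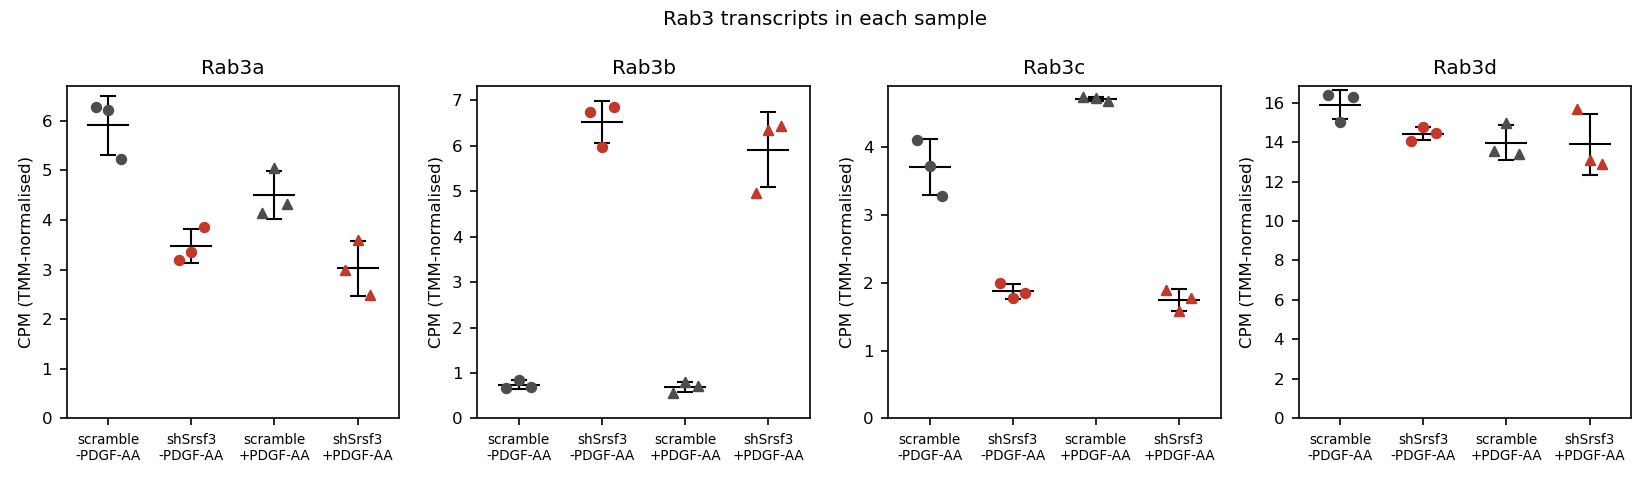
Level in CPM (y axis, from 0, scaled per panel) of Rab3a, Rab3b, Rab3c and Rab3d in each of the 12 samples by group (x axis), with grey for scramble, red for shSrsf3, circles without and triangles with PDGF-AA, and bars for mean ± SD (n = 3). Rab3b is at 4.97 to 6.85 CPM in shSrsf3 and at 0.565 to 0.851 CPM in scramble samples, while Rab3a and Rab3c are lower in shSrsf3 samples.

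The sequences before the starts of the main transcripts of Rab3b and Rab3c are shown because these genes had the largest changes and in opposite directions. They were read 5’ to 3’ from the GRCm39 genome within 250 bases upstream of the main transcript in GENCODE M39, without bases that any annotated exon covers. Capitals mark matches on either strand to the GC box, read as GGGCGG, which factors of the Sp family are known to bind. They also mark matches to the TATA box, read as TATAAA, which helps to place the start of transcription in many tissue-specific genes. The CCAAT box was searched by those letters alone.
Rab3b, chr4:108736010-108736259, plus strand: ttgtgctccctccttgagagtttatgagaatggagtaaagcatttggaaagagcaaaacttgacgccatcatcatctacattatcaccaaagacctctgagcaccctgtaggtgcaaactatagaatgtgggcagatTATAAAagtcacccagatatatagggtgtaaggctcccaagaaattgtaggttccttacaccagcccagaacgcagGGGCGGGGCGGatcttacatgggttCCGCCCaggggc
Rab3c, chr13:110416723-110416934, minus strand: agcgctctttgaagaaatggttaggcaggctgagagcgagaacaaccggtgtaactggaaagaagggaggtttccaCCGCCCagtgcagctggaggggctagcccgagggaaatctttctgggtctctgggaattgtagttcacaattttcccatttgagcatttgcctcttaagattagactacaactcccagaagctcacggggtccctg
The Rab3b stretch ends at the base before the start of transcription and holds 3 GC boxes, a pair of which overlap by 1 base, and 1 TATA box. This TATA box lies nearer the middle of the stretch than its end, with the 3 GC boxes between it and the start. Whether it helps to place the start of Rab3b was not tested. The Rab3c stretch of 212 bases ends 39 bases before the start of the main transcript and holds 1 GC box and no match to the others. It lies within the annotated Rab3c gene (chr13:110190721-110417530), so it is not upstream of every Rab3c transcript. Within 250 bases upstream, a TATA box occurs in 11.9% of 21757 protein-coding genes and in 8.82% of the 68 tested members, and a GC box in 36.3% and 54.4%. These sets are unlike, since the members passed the low-count filter and the protein-coding genes were not filtered. Of the 10 members higher in both knockdown comparisons 60.0% had a GC box, and of the 16 lower in both 68.8% did. These matches are descriptions of the letters and not evidence of binding.

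No member was called by edgeR's test upon stimulation with PDGF-AA in either line. In scramble cells, 0 of 68 members were higher (background: 2%) and 0 lower (background: 2.04%). An unadjusted p under 0.05 was found for 17 members, beside 2643 of all 15037 tested genes. In shSrsf3 cells, 0 were higher (background: 0.426%) and 0 lower (background: 0.14%), with 5 at an unadjusted p under 0.05, beside 1420 of all 15037 tested genes. By the 2-fold minimum the background was 0.2% and 0.0399%. The median log2 fold change of the members was -0.05 in scramble and -0.01 in shSrsf3 cells, beside -0.01 and -0.00436 over all tested genes. In scramble cells, DESeq2 called 1 member (Rin1, adjusted p = 0.0494) and limma-voom 1 (Rab3c, adjusted p = 0.0311), and in shSrsf3 cells DESeq2 called Rin2 (adjusted p = 0.0121) and limma-voom none. Without scramble -PDGF-AA replicate 3, which leaves the samples with low mapping rates to stand for the unstimulated scramble cells, 7 members were called in scramble cells (Rab8b, Rab23, Rab43, Rab8a, Rab2a, Rin1 and Rab3a).

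The members with the smallest p upon stimulation were Rab3c in scramble and Rin2 in shSrsf3 cells. Rab3c was at 3.70 ± 0.412 CPM without and 4.72 ± 0.0284 CPM with ligand in scramble cells (0.36 ± 0.105 SE, adjusted p = 0.0835), with every stimulated sample above every unstimulated one. In shSrsf3 cells Rab3c had -0.10 ± 0.126 (SE). Rin2 was at 12.5 ± 0.488 CPM without and 9.29 ± 1.04 CPM with ligand in shSrsf3 cells (-0.42 ± 0.107 SE, adjusted p = 0.121), again without overlap, and passed from the 9 samples with higher mapping rates (adjusted p = 0.00948) and from the 6 shSrsf3 samples alone (adjusted p = 0.0188), and in scramble cells it had -0.30 ± 0.0945 (SE, adjusted p = 0.106), with overlap. The Rab5 genes had log2 fold changes of 0.01, -0.13 and -0.05 for Rab5a, Rab5b and Rab5c in scramble cells and -0.05, -0.06 and 0.01 in shSrsf3 cells, with SE of 0.0378 to 0.0481. Eea1 had 0.05 and 0.04, and Rabgef1 0.07 and -0.00102.

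The difference between the ligand effects in shSrsf3 and scramble cells, tested as an interaction, was called for none of the 68 members by edgeR (background: 0.0133%), DESeq2 or limma-voom. An unadjusted p under 0.05 was found for 1, 2 and 1 members by these tools, and by edgeR for 833 of all 15037 tested genes. The smallest p by each of these tools was that of Rab3c, with an interaction of -0.45 ± 0.164 (SE, edgeR unadjusted p = 0.0154, adjusted p = 0.847). The size of changes in the 4 comparisons is plotted side by side, and comparisons that share a group of samples are not independent.

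**Figure D5:**
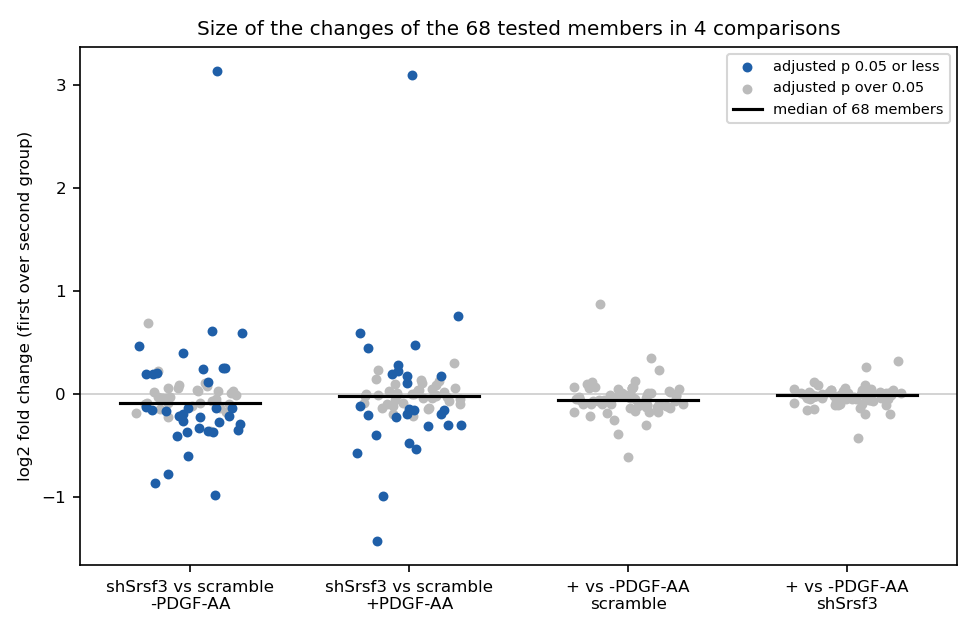
Log2 fold change (y axis) of the 68 tested members in the 4 comparisons (x axis), 1 point per member with horizontal spread for visibility, blue where the adjusted p was 0.05 or less, and the median as a line. Called members appear in both shSrsf3 comparisons (35 and 28) and in neither ligand comparison.

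Other genes of the Rab cycle and of endocytosis were counted from fixed lists, with the number higher and lower in shSrsf3 cells without and then with ligand. The background over all tested genes is 22.2% higher and 23.7% lower, then 20.3% and 20.7%. Of 39 tested TBC-family genes, 11 were higher and 7 lower, then 10 and 6, and Sgsm2 had the largest rise (log2 fold changes 0.68 and 0.66) and Tbc1d23 the largest fall (-0.36 and -0.32) among those called in both. Of 33 exchange factors of other families, 9 were higher and 7 lower, then 11 and 6. Dennd3, an exchange factor for Rab12, rose from 3.19 to 7.59 CPM without ligand (1.24, then 1.35), and Als2cl, a relative of the Rab5 exchange factor alsin, fell from 18.5 to 10.1 CPM (-0.89, then -0.86). Of 8 genes for prenylation and extraction of Rabs, 1 was lower in both, Rabac1 (-0.31 and -0.28).

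Of 41 effectors, tethers and EHD proteins, 8 were higher and 7 lower, then 6 and 10, and among those called in both the largest rise and fall were in EHD ATPases, which remodel endosomal membranes. Ehd4 rose (0.74 and 0.77) and Ehd3 fell (-0.96 and -0.97). Of 10 genes of the CORVET and HOPS tethers, which act with Rab5 and Rab7, 1 was higher and 5 lower, then 1 and 6, with median log2 fold changes of -0.19 and -0.16. Vps33a, a subunit of both complexes, fell (-0.41 and -0.30), and Vps8, a CORVET subunit, rose (0.13 and 0.14). From the 9 samples with higher mapping rates, 0 of the 10 were higher and 7 lower in both comparisons.

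Of 29 other ESCRT genes, 3 were higher and 13 lower, then 2 and 12 (background for lower: 23.7%, then 20.7%), with medians of -0.09 and -0.07. Chmp1b, of ESCRT-III, fell from 51.4 to 30.8 CPM without ligand (-0.74, then -0.70), and Chmp4c rose from a low level of 0.669 CPM (0.66, then 0.76). From the 9 samples with higher mapping rates, 3 were higher and 6 lower without ligand (background for lower: 17.5%) and 3 and 11 with ligand (20.6%). Of 29 other retromer, commander and sorting nexin genes, 7 were higher and 7 lower, then 10 and 2, and the largest rise and fall among those called in both were in Snx32 (0.50 and 0.70) and Snx18 (-0.35 and -0.44). Of 30 genes of clathrin, AP-2 and dynamin endocytosis, 8 were higher and 6 lower, then 7 and 5, with Dnm1, a dynamin, up (0.48 and 0.50) and Ap2a2, an AP-2 subunit, down (-0.27 and -0.31). Upon ligand stimulation of scramble cells, edgeR called 1 of 41 effector, 2 of 29 sorting nexin, 1 of 29 ESCRT and 1 of 30 clathrin genes. No gene of the other lists was called there (background: 2% higher and 2.04% lower). In shSrsf3 cells 0 genes of these lists were called (background: 0.426% higher and 0.14% lower).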

How the data were processed

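RNA-seq measured 12 samples in 4 groups of 3. According to the study's methods, the authors trimmed reads from stranded polyA libraries with BBDuk, quantified them with Salmon 1.4.0 against GENCODE M26 transcripts (GRCm39) and summarised them per gene with tximport, with the scaling not given in the sources used here. The expected counts that the authors deposited are one estimate per gene and sample, of which 16.3% were not whole, and they were rounded here. Total counts per sample were 30958966 to 76123359. Replicates were described as independent, and p-values measure the spread between them.

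Genes passing filterByExpr with a minimum count of 10 were fitted in 1 quasi-likelihood model of the 4 groups with TMM factors in edgeR 4.0.16 (R 4.3.3), with Benjamini-Hochberg adjustment over all 15037 tested genes. The 2 knockdown comparisons, the 2 ligand comparisons and their interaction were contrasts of this model. The code was tested on simulated data. Alternatives were DESeq2 1.42.0, limma-voom (limma 3.58.1), other normalizations and filters, a replicate block, leaving out each sample, and the 9 samples with higher mapping rates, which for the gene lists was chosen after seeing the data. The members and the lists of other genes, promoters and markers were chosen with earlier results of these data known. Named by rule were members changed at least 2-fold, 17 set members over all roles, in each role the 2 with the largest mean change among those called in the same direction without overlap in both knockdown comparisons, the member with the smallest p in each ligand comparison and the interaction, the 3 highest per length, and in each list of other genes the largest change in each direction among genes called in both knockdown comparisons. All others are named after their values were seen. Gene positions, overlaps and shared 31-base sequences come from GENCODE M39 on GRCm39, a later release than the authors'. Same-numbered replicates did not deviate together, with a correlation over 0.1 in 3 of 18 pairs, so the main fit has no block.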

Additional observations from a re-analysis of the deposited data

How the results depend on the processing

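In this section, named members are only those named by rule. For 41 knockdown results of named members that were called, 861 values under the alternatives were computed, of which 833 kept direction and side of the threshold, 28 lost the call and 0 reversed. Among named members not called, Vps35 and Snx1 changed sign without ligand with the 9 samples of higher mapping rates. With ligand, Rab7 (from -0.02 to 0.01), Rabep1 (from 0.02 to -0.03) and Snx1 (from 0.03 to -0.02) did so. Counts of members called are given next, and their causes were not tested unless stated. With the 2-fold minimum, which by construction removes small changes, 1 member was higher and 0 lower without ligand, and 1 higher and 1 lower with ligand. With the 9 samples of higher mapping rates, which leave out replicates 1 and 2 of scramble -PDGF-AA and replicate 2 of scramble +PDGF-AA, 12 members were lower without ligand in place of 23, and among named members the calls of Cbl, Rab4a, Rab5c, Rab6b, Rab7 and Rab11a without ligand were lost, and Tsg101 gained one with ligand. In those samples 11 in place of 18 TBC genes and 9 in place of 16 ESCRT genes were called without ligand, and 3 and 2 prenylation genes in place of 1 without and with ligand. Leaving out 1 sample at a time gave 11 to 13 members higher and 17 to 27 lower without ligand, 9 to 12 higher and 14 to 20 lower with ligand, and a log2 fold change of Srsf3 between -0.36 and -0.31 without and between -0.45 and -0.40 with ligand. It gave 0 to 7 members called for ligand in scramble cells, with 7 without scramble -PDGF-AA replicate 3 and 1 (Rin2) without scramble +PDGF-AA replicate 2, and 0 to 1 in shSrsf3 cells, with 1 without each of the same samples (Rab23 and Rin2). For ligand in scramble cells, 5 members were called with no low-count filter (Rab3a, Rab8a, Rab12, Rab43 and Rin2), 1 by DESeq2 and 1 by limma-voom. For ligand in shSrsf3 cells, 3 were called with no low-count filter (Rab23, Rab43 and Rin2), 2 with the 9 samples (Rab23 and Rin2), 2 with only the 6 samples compared (the same pair) and 1 by DESeq2. The interaction was called for 1 member (Rab12) with no low-count filter and for 0 otherwise. With the replicate number as a block, 1 member (Rin2) was called for ligand in scramble cells and 1 (Rin2) in shSrsf3 cells (adjusted p = 0.0258 and 0.0256). At most 16 counts in any sample were found for the 8 members not tested, for which no change could be assessed at this depth.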
